A study of Mus musculus with 899 samples.

Results

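The miR-181 family was measured here as 5 mature miRNA in mouse plasma: mmu-miR-181a-5p, mmu-miR-181b-5p, mmu-miR-181c-5p, mmu-miR-181d-5p and mmu-miR-181c-3p. They were chosen by name, as 5 of the 1915 miRNA in the count table, and all 5 were among the 483 miRNA that passed the filter on low counts. The 899 small RNA libraries came from 196 mice of the strains C3Hf/Sed/Kam (C3H) and C57Bl/6, which were bled repeatedly. Irradiated mice received whole thorax lung irradiation (WTLI), an exposure of the chest alone, and the others were sham irradiated. There were 64 irradiated and 32 sham irradiated C3H mice, and 68 irradiated and 32 sham irradiated C57Bl/6 mice, of both sexes. Plasma was drawn before irradiation (PT), on day 2 (D2) or day 5 (D5), and monthly to month 4 (M4) in C3H and month 6 (M6) in C57Bl/6 mice. Sample codes divided each strain into 2 sets of mice, of which set 1 was followed past M1 and set 2 only to M1. What else the sets stand for is not given, and the labels give neither age nor dose. The study's methods give both: young adult mice, with females older than males, and a slightly different dose for each strain. The irradiated groups shrank with time, from 58 mice at M1 to 17 at M4 in C3H. In C57Bl/6 they fell from 68 at M1 to 8 at M6. Part of this fall was the end of set 2, with 28 irradiated C3H and 36 irradiated C57Bl/6 mice sampled at M2. The late groups hold the mice still sampled then.

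Mature miRNA are short RNA cut from a hairpin precursor and loaded into Argonaute, where the seed, bases 2 to 8, pairs with target messages. The miR-181 family is best known from blood cells: it is abundant in thymocytes, where miR-181a tunes the sensitivity of T cell receptor signalling, and it takes part in B cell and natural killer cell development. Its members also occur in brain, muscle and endothelium, and which tissues the copies in plasma came from was not measured.

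The mature sequences below, from RefSeq (GRCm38.p6), show how alike the members are, with the seed in capitals. The last line is no member and is shown because it shares its seed with miR-181c-3p.
mmu-miR-181a-5p: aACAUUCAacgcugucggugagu
mmu-miR-181b-5p: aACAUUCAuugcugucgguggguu
mmu-miR-181c-5p: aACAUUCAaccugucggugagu
mmu-miR-181d-5p: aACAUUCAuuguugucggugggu
mmu-miR-181c-3p: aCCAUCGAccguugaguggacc
mmu-miR-181a-1-3p: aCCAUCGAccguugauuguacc

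The seed ACAUUCA was carried by the 4 5p members and by no other of 1679 mature mouse miRNA in the reference, so these members pair with targets through the same bases. Counted from the 5′ end, miR-181a-5p and miR-181b-5p differed by A9U, C10U and A21G over their shared length, and miR-181d-5p differed from miR-181b-5p by C12U and by its length of 23 against 24 bases. A single edit separated miR-181a-5p from miR-181c-5p. How reads that fit more than 1 of these names were assigned is not given, so small differences between members carry that limit. The members come from 3 loci. Mir181a-1 (chr1:137966455-137966541, plus strand) and Mir181b-1 (chr1:137966639-137966718, plus strand) lie within the processed transcript Gm4258. Mir181a-2 (chr2:38852735-38852810) and Mir181b-2 (chr2:38853830-38853918), both on the plus strand, lie antisense within the protein coding gene Nr6a1. Mir181d (chr8:84178716-84178787) and Mir181c (chr8:84178873-84178961), on the minus strand, lie within Nanos3. Both hairpins of miR-181a, and both of miR-181b, give the same 5p sequence, so their share in a count cannot be told apart.

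miR-181a-5p made up the largest part of the family in plasma. It held 356232 reads over all libraries, 48.1% of the reads of the 4 5p members, with a median of 298 reads a library. miR-181d-5p held 21.7% (median 135 reads), miR-181c-5p 20.5% (median 131 reads) and miR-181b-5p 9.73% (median 57 reads). miR-181a-5p was the most read 5p member in 757 of 899 libraries, miR-181d-5p in 103 and miR-181c-5p in 43, ties included. miR-181c-3p, the opposite arm of miR-181c, was sparse, with a median of 8 reads and no read in 86 libraries (9.57%). By total reads the members stood at places 108 (miR-181a-5p), 121 (miR-181d-5p), 124 (miR-181c-5p), 149 (miR-181b-5p) and 261 (miR-181c-3p) of the 1915 miRNA. How well the library preparation captures each sequence was not measured, and it bears on every level set between members.

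Among the other arms of the same hairpins, miR-181a-1-3p held 11037 reads, miR-181d-3p 635, miR-181b-1-3p 268 and miR-181b-2-3p 56. miR-181a-2-3p had no read in any library. If reads are drawn at random, that still allows an expected count of up to about 3 over all of them. Of these 5 arms only miR-181a-1-3p passed the filter.

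Levels are given below as log2 CPM, the log2 of a read count scaled to a common library size, on which a difference of 1 is a doubling and a library with no read stands at 0.23. Depth ran from 206490 to 11814515 reads a library (median 1475030), with 23 libraries under 500000. In every strain and time point miR-181a-5p had the highest mean level and miR-181b-5p and miR-181c-3p, in that order, the lowest. The order of miR-181c-5p and miR-181d-5p between them changed, with miR-181d-5p ahead in C3H at PT and M1 and in C57Bl/6 at D2 and D5. At C57Bl/6 PT these neighbours stood at 7.22 ± 0.57 and 7.11 ± 0.73 (SD, n = 96), a gap well inside their spread.

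**Figure D1:**
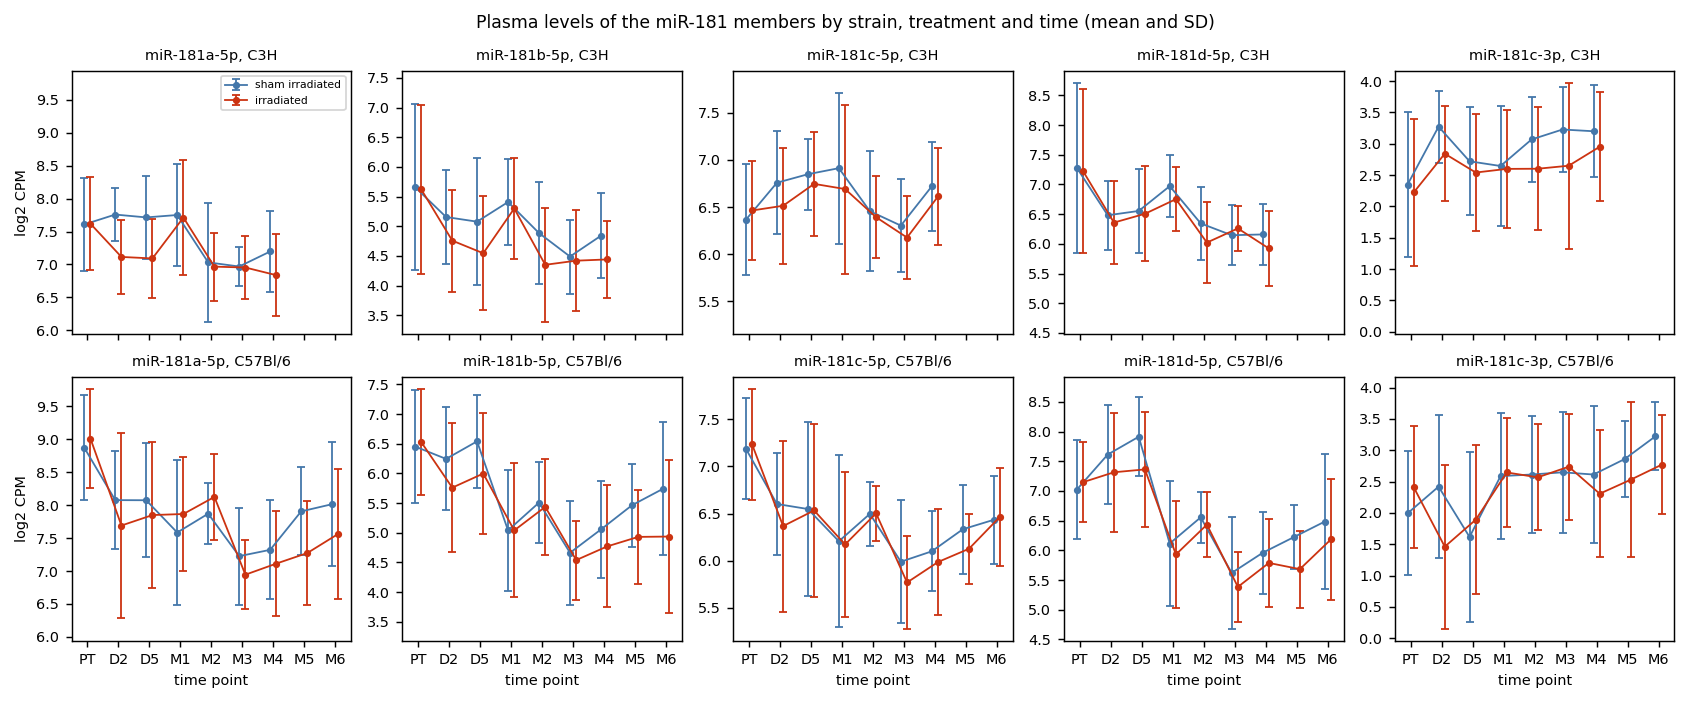
Mean level (log2 CPM, vertical axis, a scale of its own for each column of panels) of each miR-181 member by time point (horizontal axis) in sham irradiated and irradiated mice, with C3H above and C57Bl/6 below; bars are 1 SD over mice. The 2 treatments run close together in most panels and share the changes with time, while miR-181a-5p of irradiated C3H mice stands at 7.11 at D2 against 7.76 in sham irradiated mice.

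The first comparison was between irradiated and sham irradiated mice at each time point. None of the 70 tests (5 members, 14 combinations of strain and time point after irradiation) passed an adjusted p of 0.05 in edgeR's quasi-likelihood test, where 3.76% of all 6762 tests passed. The estimates leaned low: 61 of the 70 were below 0, with a median log2 fold change of −0.18, against 54.6% and −0.05 over all tested miRNA. The 70 tests share libraries and members, and 5 reached an unadjusted p of 0.05, all lower after irradiation, against 14.4% of all tests. Before irradiation none of the 10 tests passed, none reached an unadjusted p of 0.05 and the median was 0.04.

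A larger share of the spread of each 5p member lay between mouse sets and sexes than between treatments. Of the sum of squares of miR-181a-5p over the 899 libraries, 32.8% lay between strains and time points, 29.4% between mouse sets and sexes within those, 4.24% between treatments within those cells and 33.5% among mice of 1 cell. The treatment share was 2.63% to 3.21% in the other 5p members, and their set and sex share 34.8% to 42.7%. miR-181c-3p differed, with 75.0% among mice of 1 cell. The treatment shares include the PT libraries, drawn before any treatment. What share noise alone would give was not worked out, so they do not measure the size of an irradiation effect. The comparison was therefore also fitted with a block for mouse set and sex within each strain and time point, an alternative added after these levels had been seen. With the block 4 of 70 tests passed, all lower after irradiation, where 5.24% of all tests passed. At an unadjusted p of 0.05 there were 18, all lower, against 16.5% of all tests. Before irradiation none of the 10 tests passed with the block, nor did any reach an unadjusted p of 0.05.

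miR-181a-5p was the only member that passed with the block at both early time points in C3H mice. At C3H D2 its level in irradiated mice ran from 6.05 over a median of 7.11 to 8.12 (7.11 ± 0.56, SD, n = 32), and in sham irradiated mice from 7.18 over 7.73 to 8.90 (7.76 ± 0.41, n = 16). The ranges overlapped, but the sham median stood above most of the irradiated mice. The log2 fold change was −0.60 ± 0.23 (SE; edgeR adjusted p = 0.117) without the block and −0.65 ± 0.17 (edgeR adjusted p = 0.00586) with it, where 7.45% of all miRNA passed. Within the 4 cells of mouse set and sex, 3 were lower after irradiation, from −1.10 to −0.64, while set 1 males stood at 0.12. With the block the call was kept in 5 of the 8 fits that left out 1 cell of mice. These 8 include the fits that left out C57Bl/6 mice, which hold no library of this contrast. Among the fits that left out C3H mice, only the one without set 1 males kept the call. It was lost without C3H set 1 females, C3H set 2 females or C3H set 2 males, the edgeR adjusted p reaching at most 0.0999.

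At C3H D5 miR-181a-5p ran from 5.87 over a median of 7.08 to 8.09 in irradiated mice (7.09 ± 0.60, n = 32) and from 6.44 over 7.93 to 8.56 in sham irradiated mice (7.71 ± 0.62, n = 16). Again the ranges overlapped and the sham median lay near the top of the irradiated range. The fold change was −0.63 ± 0.23 (edgeR adjusted p = 0.121) without the block and −0.58 ± 0.17 (edgeR adjusted p = 0.0213) with it, where 4.97% of all miRNA passed. All 4 cells of mouse set and sex were lower, by 0.07 to 1.10. Leaving out C3H set 1 females or C3H set 2 males ended this call (highest adjusted p = 0.208). D2 and D5 were drawn from different mice, so these are separate libraries compared with separate controls.

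**Figure D2:**
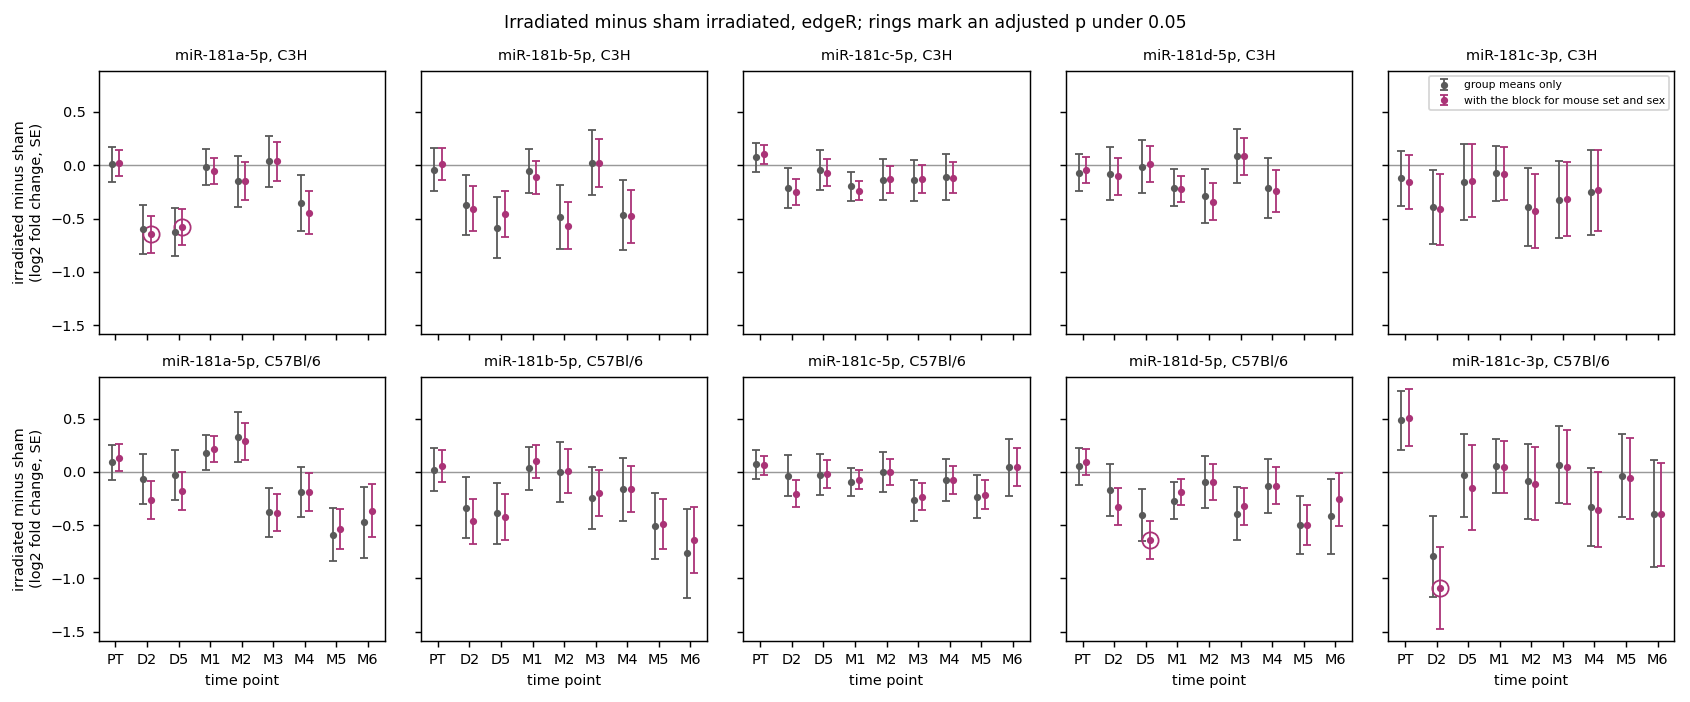
Irradiated minus sham log2 fold change with its standard error (vertical axis) for each member by time point (horizontal axis), C3H above and C57Bl/6 below, from edgeR with group means alone and with the block for mouse set and sex; rings mark an adjusted p under 0.05. The only rings are miR-181a-5p in C3H at D2 and D5, miR-181d-5p in C57Bl/6 at D5 and miR-181c-3p in C57Bl/6 at D2, all in the fit with the block and all below 0.

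mmu-miR-181a-1-3p, the opposite arm of the Mir181a-1 hairpin, gave −0.54 ± 0.33 at C3H D2 and −0.41 ± 0.34 at C3H D5 with the block and did not pass. Leukocyte miRNA also fell in these groups. The study had already named several miRNA of this list among its changed plasma miRNA, so their fall was known beforehand. Of 8 tested miRNA of the leukocyte list, 5 fell at C3H D2 (median of the list −0.65, of all tested miRNA −0.03) and 4 at C3H D5 (median −0.45, of all −0.00). They included mmu-miR-150-5p, a lymphocyte miRNA, at −1.65 and −1.31, mmu-miR-155-5p, induced in activated lymphocytes, at −1.56 and −0.79, and mmu-miR-142a-3p, found across blood cells, at −0.88 and −0.85. The summed level of the list ran from 8817 over a median of 12422 to 18785 CPM in irradiated C3H mice at D2, and from 9851 over 24201 to 42432 CPM in sham irradiated ones. At D5 the medians were 14772 and 22995 CPM. No miRNA of the list was at 0 throughout. The part of these miRNA in the miR-181a-5p values was not tested. In plasma, fewer cells of a type and less RNA released per cell cannot be told apart.

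The other lists were read with the block too. The study had also named the miR-34 family and miRNA of the pancreas list as changed in plasma. Of 5 miRNA of the miR-34 family, known targets of p53, 3 rose at C3H D2 and 4 at C3H D5, with summed medians of 535 against 281 CPM and 664 against 214 CPM. At C3H D2, of 4 liver miRNA 1 rose and 2 fell, 1 of 4 pancreas miRNA rose (summed medians of 2054 against 1120 CPM), and none of 7 red blood cell, 4 endothelium and platelet, 7 muscle or 6 tested neural miRNA passed. At C3H D5, 2 red blood cell miRNA rose and 1 liver miRNA fell, and none of the endothelium and platelet, muscle, neural and pancreas lists passed.

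In C57Bl/6 mice miR-181a-5p gave −0.07 ± 0.23 at D2 and −0.03 ± 0.23 at D5 without the block. The strain difference of the effect, C57Bl/6 minus C3H, also without the block, was 0.53 ± 0.33 at D2 (95% interval −0.11 to 1.18) and 0.59 ± 0.33 at D5 (−0.05 to 1.24; edgeR adjusted p = 0.517). An F test of this difference over the 6 shared time points passed for 0 of 5 members, where 4.35% of all miRNA passed. The lowest adjusted p was 0.566, and 0.247 with the block. At an unadjusted p of 0.05 there was no member without the block and 1 with it. Taken by time point with the block, 1 of 30 tests reached it (edgeR, lowest unadjusted p = 0.00881) and none passed (lowest edgeR adjusted p = 0.185). The intervals still hold differences of more than a doubling, so the data do not show that the strains responded alike. Each strain also had its own dose, so strain and dose cannot be told apart.

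In C57Bl/6 mice 2 other members passed with the block. miR-181c-3p at D2 had no read in 14 of 32 irradiated libraries (median 1 read) and in 1 of 16 sham irradiated libraries (median 5.5 reads). Its level ran from 0.23 over 1.31 to 4.25 in irradiated mice and from 0.23 over 2.66 to 4.15 in sham irradiated mice, so the ranges almost coincided and more of the irradiated mice stood at the bottom. Depth moved with it: the median was 859418 reads in the irradiated and 1300997 in the sham irradiated libraries. The fold change was −0.79 ± 0.38 (edgeR adjusted p = 0.211) without the block and −1.09 ± 0.38 (edgeR adjusted p = 0.0461) with it, where 10.4% of all miRNA passed. All 4 cells of mouse set and sex were lower, from −1.84 to −0.53. Yet the call was kept in only 2 of 8 fits that left out a cell of mice of either strain (edgeR adjusted p up to 0.517). At D5, in other mice, 9 of 32 irradiated and 6 of 16 sham irradiated libraries had no read.

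miR-181d-5p at C57Bl/6 D5 ran from 5.27 over 7.55 to 8.94 in irradiated mice (7.36 ± 0.97, n = 32) and from 6.19 over 7.88 to 9.0 in sham irradiated mice (7.91 ± 0.66, n = 16). The fold change was −0.40 ± 0.24 (edgeR adjusted p = 0.291) without the block and −0.64 ± 0.18 (edgeR adjusted p = 0.00349) with it, where 14.9% of all miRNA passed. The cells were unequal: set 2 females stood at 5.99 ± 0.50 after irradiation (n = 8) and 7.84 ± 1.24 after sham irradiation (n = 4). The other 3 cells differed by −0.60, −0.15 and 0.39. Without C57Bl/6 set 2 females the fold change was −0.05 (edgeR adjusted p = 0.954), and without libraries under 500000 reads −0.35 (edgeR adjusted p = 0.231). Of 5 other settings with the block 1 kept the call, and the planned settings without it ran from −1.23 in mouse set 2 alone to 0.24 in mouse set 1 alone. At this time point 5 of 8 leukocyte miRNA fell (median −0.84), and at C57Bl/6 D2 2 of 8 (median −0.21); the part of these miRNA in the member values was not tested. Of 7 red blood cell miRNA 2 fell at C57Bl/6 D2 and 1 rose at D5. Of 5 miR-34 miRNA 3 rose at each of these times, with summed medians of 412 against 235 CPM at D2 and 417 against 181.1 CPM at D5, irradiated against sham irradiated. Of 4 pancreas miRNA 1 rose at each, with summed medians of 3375 against 720 CPM at D2 and 1391 against 632 CPM at D5. Of 4 liver miRNA 1 rose and 1 fell at D2, and 1 rose and 2 fell at D5. Of 4 endothelium and platelet miRNA 2 fell at D2, and 1 rose and 1 fell at D5. At D2 1 of 6 tested neural miRNA rose and at D5 1 of 7 muscle miRNA, and these lists held no other call.

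After the first week no member passed in either fit. The late estimate farthest below 0 was miR-181b-5p at C57Bl/6 M6, at −0.76 ± 0.42 (edgeR adjusted p = 0.55) and −0.64 ± 0.31 (edgeR adjusted p = 0.415) with the block, between 8 irradiated mice at 4.94 ± 1.29 and 16 sham irradiated mice at 5.74 ± 1.12. The lowest late adjusted p was that of miR-181a-5p at C57Bl/6 M5, where 21 irradiated mice stood at 7.27 ± 0.79 and 16 sham irradiated mice at 7.91 ± 0.67, a fold change of −0.59 ± 0.25 (edgeR adjusted p = 0.199) and of −0.54 ± 0.19 (edgeR adjusted p = 0.0637) with the block. miR-181c-5p moved least among the members, with estimates between −0.27 and 0.04 over its 14 tests.

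The balance within the family was followed through the ratio of miR-181a-5p to miR-181b-5p reads, which does not depend on library scaling. On the log2 scale it differed between irradiated and sham irradiated mice by −0.24 to 0.50, and 0 of 14 comparisons passed (permutation test, 100000 resamples, two-sided; lowest adjusted p = 0.254). At an unadjusted p of 0.05 there was none either. With labels permuted within mouse set and sex 3 reached it, C3H M2 (0.50, p = 0.0405), C57Bl/6 M1 (0.30, p = 0.0456) and C57Bl/6 M2 (0.33, p = 0.0396), and none passed the adjustment (permutation test; lowest adjusted p = 0.181).

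The sexes were compared in their early responses. Age differed along with sex, as the females were older. An F test over D2, D5 and M1 of the female minus male irradiation effect passed for 0 of 5 members in C3H, where 0.737% of all miRNA passed, and 0 of 5 in C57Bl/6, where 5.16% passed. The lowest adjusted p was 0.369 in C57Bl/6 and 1.0 in C3H, and no F test of a member reached an unadjusted p of 0.05.

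The second comparison was between the strains before irradiation. miR-181a-5p was higher in C57Bl/6 mice by 1.38 ± 0.12 (log2; 8.97 ± 0.77 against 7.62 ± 0.70, n = 96 mice each), miR-181c-5p by 0.81 ± 0.10 and miR-181b-5p by 0.56 ± 0.14. miR-181d-5p was lower by 0.57 ± 0.12 (log2 fold change −0.57), and miR-181c-3p at −0.24 ± 0.19 did not pass. Mean log2 CPM differed less, at 7.11 ± 0.73 in C57Bl/6 and 7.25 ± 1.39 in C3H mice for miR-181d-5p, and 2.27 in both for miR-181c-3p. The miR-181d-5p call was lost with limma-voom. So 4 of 5 members passed, where 50.7% of all miRNA passed. The split by mouse set changed this picture for 2 members. The set numbers were given here by how long mice were followed, the codes differ between the strains, and nothing in the labels ties set 1 of one strain to set 1 of the other. Between the sets numbered 1, 4 members passed (51.3% of all), with miR-181b-5p at −0.46 and miR-181d-5p at −1.48. Between the sets numbered 2, 4 members passed (37.9% of all), with miR-181b-5p at 2.53 and miR-181d-5p at 1.37. miR-181a-5p, at 0.51 within set 1 and 2.33 within set 2, and miR-181c-5p, at 0.42 and 1.26, were higher in C57Bl/6 mice in both.

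In C3H mice the 2 sets stood apart before any treatment. miR-181d-5p ran from 7.75 over a median of 8.58 to 9.31 in set 1 and from 4.59 over 5.93 to 7.13 in set 2 (n = 48 each). miR-181b-5p ran from 5.70 over 6.86 to 7.88 in set 1 and from 2.52 over 4.46 to 5.66 in set 2. For both members every set 1 mouse lay above every set 2 mouse. The differences, set 1 minus set 2, were 2.62 ± 0.15 for miR-181d-5p, 2.55 ± 0.19 for miR-181b-5p, 1.04 ± 0.14 for miR-181a-5p and 0.64 ± 0.11 for miR-181c-5p. These 4 passed (edgeR) and miR-181c-3p at −0.31 did not, where 54.9% of all miRNA passed. In C57Bl/6 mice the sets differed less and in the other direction, by −0.78 ± 0.14 for miR-181a-5p and −0.44 ± 0.17 for miR-181b-5p, 2 of 5 members, where 31.5% of all miRNA passed. The sexes were not alike in this. In males miR-181a-5p stood at 8.74 in set 1 and 9.92 in set 2, and miR-181b-5p at 6.61 and 7.43. In females miR-181a-5p stood at 8.60 in both sets, and miR-181b-5p at 6.21 in set 1 and 5.76 in set 2 (n = 24 in each cell).

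**Figure D3:**
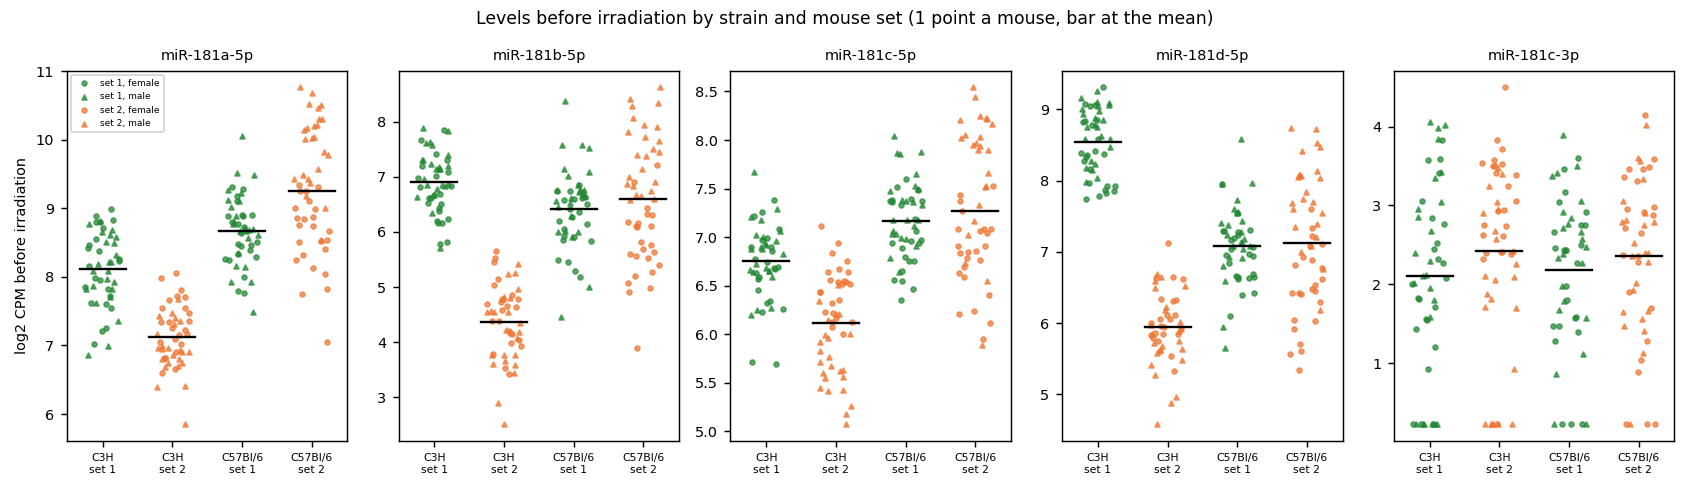
Level before irradiation (log2 CPM, vertical axis, a scale of its own for each panel) of each member in every mouse, by strain and mouse set (horizontal axis), with females as circles, males as triangles and a bar at the mean of 48 mice. In C3H mice the miR-181b-5p and miR-181d-5p values of set 1 and set 2 do not overlap, whereas the C57Bl/6 sets overlap for all members.

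Other measures moved with the C3H sets. Median depth was 1274625 reads in set 1 and 1729580 in set 2, and in C57Bl/6 mice 1622474 in set 1 and 789666 in set 2. Of 7 red blood cell miRNA 5 were higher and 2 lower in set 1, with a summed median of 846721 against 588594 CPM (of TMM-scaled libraries, so that a sum can exceed the library itself), and 5 of 6 tested neural miRNA were lower. Of 8 tested leukocyte miRNA 3 were higher and 5 lower, with summed medians of 23090 and 27449 CPM. Of 5 miR-34 miRNA 1 was higher and 2 lower in set 1, with summed medians of 75.4 and 165 CPM. The part of these in the member values was not tested, and whatever separated the sets of mice cannot be told apart from the sets. The log2 ratio of miR-181a-5p to miR-181b-5p followed them, at 1.22 ± 0.43 in C3H set 1, 2.81 ± 0.65 in C3H set 2, 2.28 ± 0.48 in C57Bl/6 set 1 and 2.67 ± 0.48 in C57Bl/6 set 2 (n = 48 each). Its strain difference before irradiation, 0.46 (permutation p = 5e-05, two-sided), therefore joined set 1, where the C57Bl/6 mean was higher, with set 2, where it was lower.

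Sham irradiated mice were followed next, each time point against PT. Age and the number of earlier bleeds rose with time and cannot be told apart from it. The study bled live mice behind the eye and euthanized mice from the heart, and the labels do not give the site. In C3H mice 14 of 30 tests passed, 1 higher and 13 lower, where 26.2% of all tests passed. In C57Bl/6 mice 26 of 40 passed, 2 higher and 24 lower, where 26.9% passed. miR-181b-5p and miR-181d-5p were lower than at PT at all 6 later time points of C3H mice, by 0.67 to 1.69 and by 0.83 to 1.68, and miR-181a-5p at all 8 of C57Bl/6 mice, by 0.80 to 1.71. Before irradiation 32 sham irradiated C57Bl/6 mice stood at 8.87 ± 0.80 for miR-181a-5p, and 16 at M3 at 7.23 ± 0.74.

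These courses differed between the mouse sets. In C3H set 1, 17 of 30 tests passed (36.2% of all), 2 higher and 15 lower, with miR-181d-5p lower by 1.39 to 2.47. In C3H set 2, 1 of 15 passed (4.97% of all), miR-181d-5p at M1 with 0.77, in the opposite direction. In C57Bl/6 set 1, 24 of 40 passed (25.1% of all), 6 higher and 18 lower, and in C57Bl/6 set 2, 7 of 15 (19.9% of all), 1 higher and 6 lower. In C3H mice the lower levels of miR-181b-5p and miR-181d-5p were thus seen in set 1, which stood high at PT, and in set 2 neither was lower in a test that passed. For miR-181a-5p in C57Bl/6 mice all 3 tests passed in set 2, from −2.34 to −0.83, and 4 of 8 in set 1.

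miR-181c-3p went the other way in C57Bl/6 mice, standing at 1.99 ± 0.99 at PT (n = 32) and 3.22 ± 0.54 at M6 (n = 16), a change of 1.21 ± 0.35 (edgeR adjusted p = 0.00356). It was above PT in all 8 tests, from 0.11 to 1.21, and only M6 passed. Where the M6 blood was drawn is not given. The late groups hold set 1 mice alone, which stood lower at PT (1.71 ± 1.05, n = 16) than set 2 (2.27 ± 0.86, n = 16). Within set 1 the 8 tests ran from 0.28 to 1.54 and 4 passed as higher, M3 to M6. Within set 2 the 3 tests ran from −0.02 to 0.52 and none passed. Its partner from the same hairpin, miR-181c-5p, passed as lower than at PT in 7 of 8 tests.

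Sex differences before irradiation were seen in C57Bl/6 mice. By the study's methods the females were older than the males, so sex and age cannot be told apart here. There 4 of 5 members were lower in females, where 12.2% of all miRNA passed: miR-181b-5p by 1.11 ± 0.19, miR-181a-5p by 0.83 ± 0.15, miR-181d-5p by 0.81 ± 0.17 and miR-181c-5p by 0.59 ± 0.13, all on the log2 scale. In C3H mice 0 of 5 passed, where 13.3% of all passed, and none reached an unadjusted p of 0.05. Within the mouse sets of C57Bl/6, 4 members passed in set 2 (13.9% of all; miR-181b-5p −1.70, miR-181d-5p −1.36, miR-181a-5p −1.35, miR-181c-5p −0.96) and 0 in set 1 (5.18% of all). In the C3H sets, 0 passed in set 1 (7.25% of all), and in set 2 miR-181c-3p (1.05) and miR-181c-5p (0.75) were higher in females (19.3% of all). Set 2 males of C57Bl/6 had a miR-181a-5p level of 9.92 ± 0.56 and set 2 females 8.60 ± 0.56, against 8.74 ± 0.58 and 8.60 ± 0.43 in set 1 (n = 24 each).

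The balance of miR-181d-5p and miR-181a-5p, which share a seed but come from different chromosomes, shifted by mouse set and time. Over 48 cells of strain, time point, mouse set and sex, miR-181d-5p minus miR-181a-5p had a median of −1.18 log2 and ran from −2.15 to 0.61. miR-181d-5p was ahead in 7 cells: C3H set 1 at PT (0.27 in females, 0.61 in males), C57Bl/6 set 1 at D2 (0.45 and 0.46) and D5 (0.48 and 0.37), and C3H set 2 females at M1 (0.01). The SD of the 48 cell means was 0.72, and the median SD among mice of 1 cell was 0.53. Irradiated and sham irradiated mice of the same cell differed by a median of 0.24 in size over the 48 cells. At C3H D2 and D5 the balance was higher after irradiation in 7 of 8 cells. At D5 it was −0.19 against −1.02 in set 1 females, −0.44 against −1.26 in set 1 males, −0.93 against −1.25 in set 2 females and −0.80 against −1.11 in set 2 males (irradiated against sham irradiated means). At D2 only set 1 males did not share this, at −0.65 against −0.61. In C57Bl/6 mice at D5 it was higher in both sexes of set 1 and lower in both of set 2. These differences of the balance were not tested. The pair miR-181d-5p and miR-181b-5p, close in sequence, held its order, with miR-181d-5p ahead in 48 of 48 cells by 0.33 to 1.93.

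**Figure D4:**
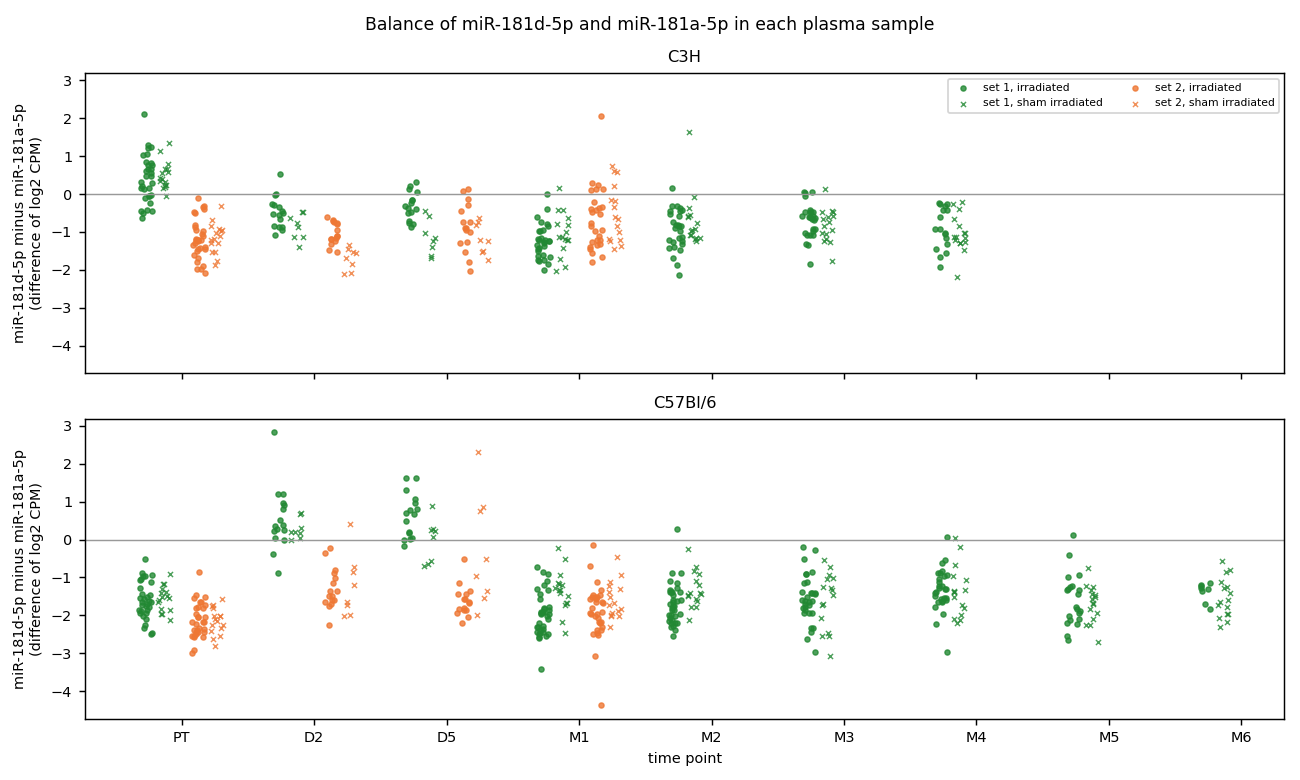
miR-181d-5p minus miR-181a-5p (difference of log2 CPM, vertical axis) in each plasma sample by time point (horizontal axis), C3H above and C57Bl/6 below, coloured by mouse set, with irradiated mice as dots and sham irradiated mice as crosses. Values above 0 gather in C3H set 1 at PT and in C57Bl/6 set 1 at D2 and D5, in both treatments.

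The 5p members varied together among mice of the same cell. At PT, within each of 8 cells of strain, mouse set and sex (24 mice each), miR-181a-5p and miR-181b-5p had a Pearson r of 0.39 to 0.88 (median 0.73; median Spearman rho 0.68), and 5 of 8 passed a permutation test adjusted over all 80 relations. Without the 2 mice farthest from the median the median r was 0.59 and the lowest 0.22. miR-181b-5p and miR-181d-5p had r of 0.30 to 0.90 (median 0.68; median rho 0.57), 7 of 8 passed, and without 2 mice the median was 0.61. The other pairs of 5p members had median r from 0.44 to 0.59, with 4 to 6 of 8 passing. For miR-181c-3p the median r with the 5p members lay between −0.02 and 0.12, and 1 of 32 relations passed. Such values were not particular to the family. Over all PT samples with the cell means taken out, the closest miRNA outside it reached 0.70 for miR-181a-5p (mmu-miR-26a-5p). For miR-181d-5p it reached 0.74 (mmu-let-7i-5p). The share of passing relations over all tested miRNA was not worked out. These values share a library and its scaling, near-identical sequences may share reads, and few reads stand behind miR-181c-3p.

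The miRNA most like each member over the 32 group means were mmu-miR-10a-5p for miR-181a-5p (r = 0.90), mmu-miR-1843a-5p for miR-181b-5p (0.85), mmu-miR-18a-3p for miR-181c-5p (0.85), mmu-miR-1306-3p for miR-181d-5p (0.81) and mmu-miR-338-3p for miR-181c-3p (0.87). Over the PT samples of 96 mice of each strain, after the strain mean was taken out, they were mmu-miR-423-3p for miR-181a-5p (0.69), mmu-miR-1843a-5p for miR-181b-5p (0.76), mmu-miR-340-5p for miR-181c-5p (0.72) and mmu-miR-872-5p for miR-181d-5p (0.83), while miR-181c-3p had no miRNA above 0.28. With the means of strain, mouse set and sex taken out, so that the gap between the C3H sets does not enter, most of these changed. They were then mmu-miR-26a-5p for miR-181a-5p (0.70), mmu-let-7i-5p for miR-181b-5p (0.65) and miR-181d-5p (0.74), and again mmu-miR-340-5p for miR-181c-5p (0.60), with miR-181c-3p at most at 0.26. These are descriptions with no test, over points that share libraries and, in the first comparisons, mouse sets.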

How the data were processed

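Plasma small RNA libraries (QIAseq miRNA kit, RNA from 25 µL of plasma) were sequenced by the authors, who deposited 1 table of raw read counts per mature miRNA and library. Per the study's methods, hemolysed plasma was left out and reads were trimmed and aligned in Illumina BaseSpace with the Small RNA application, to the mouse build of the reference used here (GRCm38). The miRNA release and whether molecular identifiers were collapsed are not given in the sources used here. Every column was mapped to a labelled sample, and no 2 libraries were identical. The members and lists were chosen with earlier results of these data known.

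Of 1915 miRNA, 483 passed edgeR's filter and held 99.99% of reads. edgeR 4.0.16 (R 4.3.3) was run with TMM scaling and the quasi-likelihood test on 32 group means of strain, treatment and time point, with Benjamini-Hochberg adjustment over all tested miRNA at 0.05. Sex contrasts used group means split by sex. Levels are log2 CPM with a prior count of 2, and the read ratio added 0.5 reads. Alternatives used limma 3.58.1, DESeq2 1.42.0, other filters, other samples and the mouse as a block. The fit of group means was tried on simulated counts for C3H D2, drawn without differences between mouse sets or sexes. The fit with the block was not simulated. Nothing says which mice shared a cage, a preparation or a run, so p-values measure the spread between these samples. Named were all members, at most 4 miRNA of a list and the miRNA most like each member.

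Each mouse was bled repeatedly. Deviations of the same mouse from its group means at different time points had a median r between −0.03 and 0.09 over 31 pairs of time points, and the consensus correlation within mice was 0.04. Irradiated and sham irradiated mice are different mice, so the pairing bears on changes with time.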

Additional observations from a re-analysis of the deposited data

How the results depend on the processing

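The count of 0 of 70 irradiated minus sham calls became 1 with mouse set as a covariate, 1 in mouse set 2 alone, 2 with only the 2 groups of a contrast in the fit, and 0 to 1 when a cell of mouse set and sex was left out. With each mouse as a fixed replicate block, a change from its own PT sample, it was 1, miR-181c-3p at C57Bl/6 D2 (−1.65, adjusted p = 0.0298). With the block for mouse set and sex it was 4, and with that block 3 under DESeq2 size factors, 3 with limma-voom, 3 with the mouse as a random replicate block, 2 with the mouse as a fixed block, 4 without libraries under 500000 reads, and 1 to 7 when a cell of mice was left out (1 without C3H set 1 females, 7 without C57Bl/6 set 2 males). These counts do not always hold the same calls: without libraries under 500000 reads miR-181d-5p at C57Bl/6 D5 did not pass. The 7 calls without C57Bl/6 set 2 males included miR-181b-5p and miR-181c-5p at C57Bl/6 D2. They also held miR-181a-5p and miR-181d-5p at C57Bl/6 M5 (edgeR adjusted p = 0.0319 and 0.0468), where set 2 has no library. Without the block, miR-181a-5p in C3H mice stayed below 0 in all 14 planned settings other than leaving out mice, at D2 and at D5. It passed in 2 of them at D2 and 1 at D5.

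The sham course gave 40 of 70 calls and 31 to 52 under the planned settings, 42 and 52 with the mouse as a random or fixed replicate block. No planned setting turned the direction of a call. Within mouse set 2 it gave 8 of 30, with 4 of the 15 calls there of opposite sign. The strain difference before irradiation gave 3 or 4 of 5 calls, but miR-181b-5p turned to −0.46 within set 1 and miR-181d-5p to 1.37 within set 2, and the miR-181d-5p call was lost with limma-voom (−0.09) and with quantile-normalized RPM (−0.19). The sex count of 4 became 0 within set 1 and 0 to 8 when mice were left out (7 without C3H set 1 females, 8 without C3H set 1 males, 0 without C57Bl/6 set 2 males). The C3H sex difference, female minus male, then ran from −1.66 without set 1 females to 1.76 without set 1 males in miR-181b-5p, and from −1.69 to 1.87 in miR-181d-5p (0.57 without set 2 females). By construction these fits set both mouse sets of 1 sex against 1 set of the other. The sex difference of the irradiation effect gave 0 to 1 when mice were left out. The ratio gave 0 of 14 after adjustment in all settings, with 3 at an unadjusted p of 0.05 when permuted within mouse set and sex and 2 with a pseudocount of 5. The causes of these changes were not tested. miR-181c-3p rests on a median of 8 reads a library.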
